A study of Homo sapiens with 8 samples.

Results

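The DEAD and DEAH box helicases are a family of enzymes that use ATP to unwind or remodel RNA, named after the amino acids of one of their conserved motifs. The 53 members described here are the protein-coding genes on chromosomes 1 to 22 and X whose symbols begin with DDX or DHX and a number, 37 DDX and 16 DHX genes out of 19974 protein-coding genes in the RefSeq annotation. No measured value entered this choice. Opened DNA at these genes was compared between HEK293T cells exposed for 10 min to ascorbic acid (vitamin C) at 0.5 mM and control cells without it. Labelling followed in both, with N3-kethoxal at 5 mM for 10 min. HEK293T is an established human embryonic kidney line, and each condition had 2 labelled libraries and 2 input libraries. Only the 4 labelled libraries have peak lists here, and the inputs were not analysed here. The titles named HEK293T throughout, while the number in the cell line field differed from sample to sample, and the titles were followed.

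In KAS-seq, N3-kethoxal attaches to guanines that are not base-paired, so that single-stranded DNA, such as the bubble around a transcribing RNA polymerase, can be pulled down and sequenced. A peak at a gene is therefore a record of opened DNA at that place, not of the amount of its mRNA. The helicases themselves act in nearly every step of RNA life: spliceosomes and ribosomes are assembled with their help, and mRNAs are exported, translated and degraded with it. Most of them are made in all dividing cells, while a few serve germ cells or antiviral defence.

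The vitamin C lists held 9816 and 9896 peaks on these chromosomes and the control lists 30351 and 24111, covering 4.92 and 4.73 Mb with vitamin C and 15.6 and 12.9 Mb in the controls. Every count below has to be read against this difference in list length, and read numbers are not given in peak lists. The housekeeping genes ACTB, GAPDH and EEF1A1 had peaks in all 4 libraries. Of 8 genes of other tissues, ALB alone had a peak, in vitamin C replicate 1 only. Of 5 genes typical of the HEK293T line, only LIN28B had one, in the controls alone. The other 4 had no peak in any library. The labels do not say whether replicates were separate cultures, so the spread between libraries may be technical.

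Opened DNA was found at most helicase genes in the controls and over a shorter length with vitamin C. A peak within the gene or 1 kb of it was present at 25 and 26 members with vitamin C and at 42 and 41 in the controls. In both controls together, 39 of 53 members (73.6%) had one, against 35.3% of all protein-coding genes. Members carried 84 and 83 peaks with vitamin C and 217 and 175 in the controls. Within the widened genes those peaks covered 42521 and 40533 bp of the genes with vitamin C, against 118650 and 95468 bp in the controls. The mean covered length was 41527 ± 1406 bp with vitamin C and 107059 ± 16392 bp in the controls (SD, n = 2 each), a log2 ratio of -1.37. The difference was larger than the spread between replicates, with an exact two-sided permutation p of 0.333, the smallest that 2 libraries against 2 can give. No single gene can therefore pass a threshold of 0.05, and the values of each library are given instead.

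The shortening at the helicase genes was of the order seen at all genes. Covered length had a log2 ratio of -1.37 at the members and -1.63 over all protein-coding genes. Peak number had one of -1.23 at the members and -1.51 over all. The sum rests on a few genes, since DHX9, DDX3X, DDX17, DHX30 and DDX5 held 67.8% and 66.8% of the members' covered bases with vitamin C and 51.3% and 54.0% in the controls. Without these 5 genes the log2 ratio was -1.91, below that of all genes instead of above it. The value over all genes kept its own genes of largest control length, so this is not a like-for-like comparison. Covered length was lower in both vitamin C libraries than in either control at 38 members. That was 86.4% of the 44 members with any peak, against 67% of all genes with any peak. Only genes with a peak in both controls can meet this rule. Among those it was met by 38 of 39 members and by 6360 of 7047 of all genes. Covered length was higher in both at 0 members, against 0.169% of all genes with any peak. Peaks and bases shared by neighbouring genes were counted once in these totals. With every list reduced to its 9816 most significant peaks by q, the members held 84 and 83 peaks with vitamin C and 77 and 74 in the controls, a log2 ratio of 0.15. Covered length was then 42521 and 40533 bp with vitamin C and 60975 and 54129 bp in the controls, a log2 ratio of -0.47, against -0.67 at all genes. At equal list length the number of peaks at the helicase genes was thus no longer lower with vitamin C, while covered length was. The cut kept nearly all vitamin C peaks but only the most significant part of the control lists. Lengths after it therefore come from unlike parts of the lists, and a shortening of peaks was not tested by it.

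**Figure D1:**
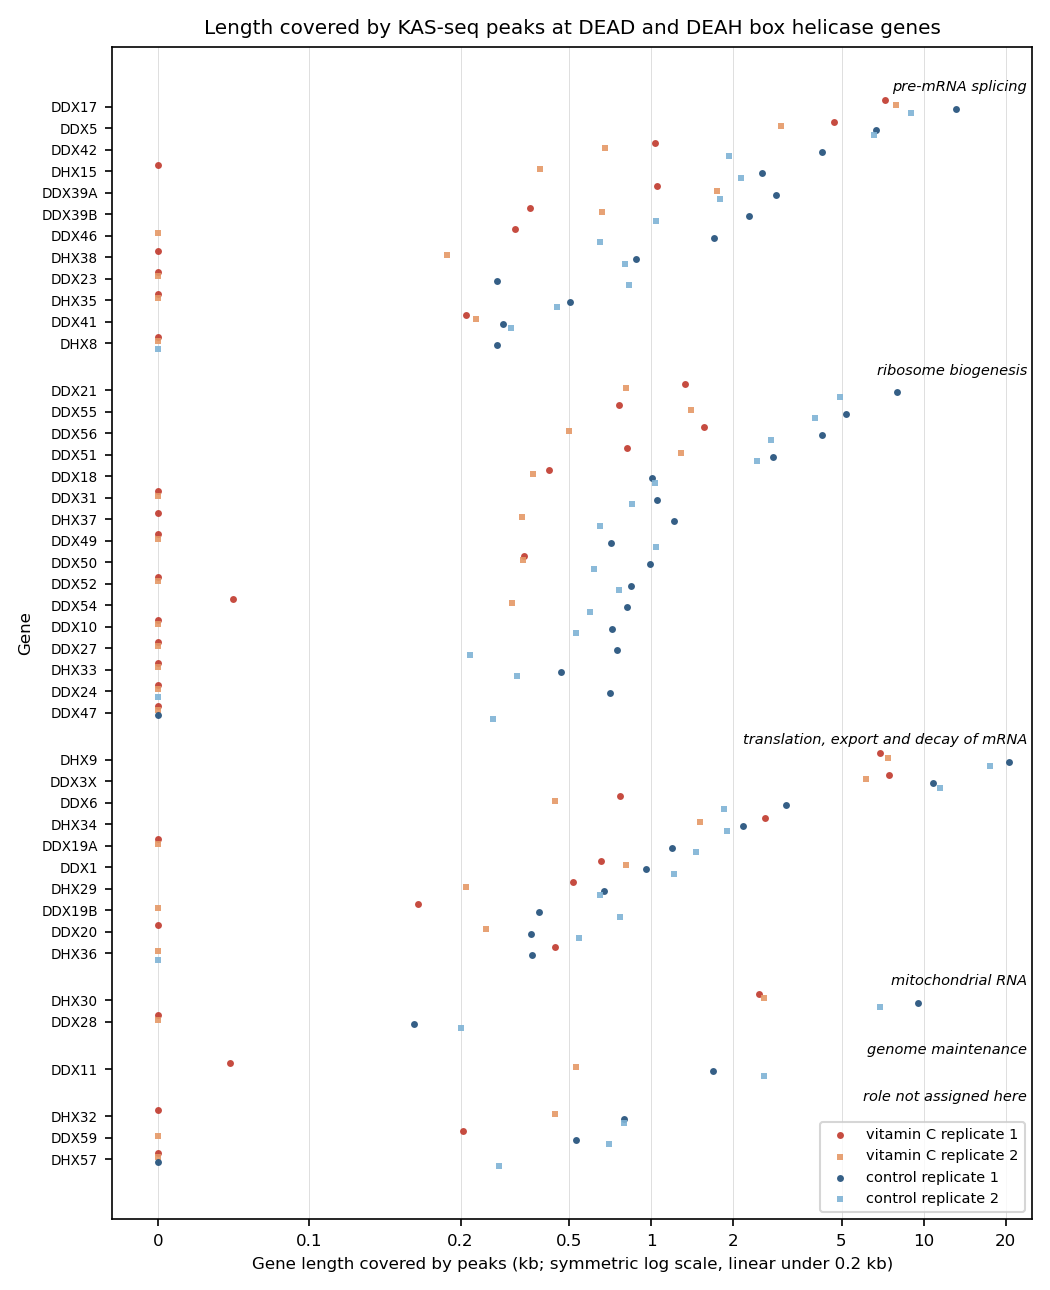
Length of each gene (widened by 1 kb) covered by peaks, for the 44 members with a peak in any library, grouped by role. Each point is 1 library (red and orange: vitamin C replicates; dark and light blue: control replicates), on a symmetric log axis in kb. At DHX9 the vitamin C points lie near 7 kb and the control points at 17.6 and 20.6 kb, while DHX34 is the one kept gene whose groups overlap.

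3 calls are used for the 39 members seen in both controls. Kept means peaks in all 4 libraries, lost means none with vitamin C, and partly kept means a peak in 1 of the vitamin C libraries. Among the members 21 were kept, 8 partly kept and 10 lost, which makes 53.8% kept and 25.6% lost. Among all protein-coding genes seen in both controls the shares were 49.7% kept and 26.8% lost. The members' shares lay near this background. Without the 1 kb widening 16 members were kept and 13 lost, of 36 with a peak in both controls. Shares over all genes were not taken at that setting, so these counts cannot be set against background. No member was gained, meaning found with vitamin C in both replicates but in no control, against 0.025% of all genes.

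Loss followed the covered length in the controls, at helicases as at other genes. Under 1 kb of mean control length, 9 of 19 members (47.4%) were lost, beside 46.5% of all genes in that range. Between 1 and 2 kb it was 1 of 5 members, beside 13.2% of all genes. At 2 kb or more it was 0 of 15, beside 1.66% of all genes. At equal list length only DDX52 was lost, 1 of 22 members with a peak in both controls, against 7.42% of all such genes, and 19 were kept, against 76%.

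**Figure D2:**
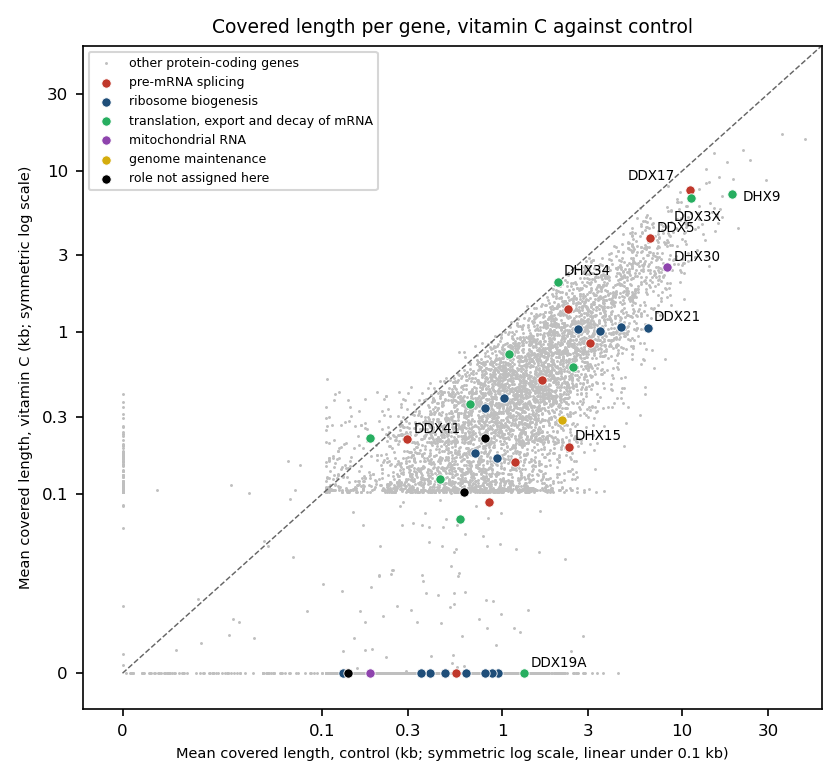
Mean covered length per gene with vitamin C (vertical axis) against control (horizontal axis), both in kb on symmetric log scales. Grey points are all other protein-coding genes with a peak, coloured points the helicase genes by role, and the dashed line marks equal lengths. Nearly all coloured points lie below the line within the grey cloud, DHX34 lies on it and DHX36 slightly above it, and the lost genes lie along the bottom.

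The splicing helicases held some of the longest opened stretches. Of 13 genes, 11 had a peak in both controls, and 6 of these were kept (54.5%, beside 49.7% of all genes), 3 partly kept and 2 lost (18.2%, beside 26.8%). DDX17 and DDX5, paralogs that act in splicing and as coregulators of transcription, led the group. DDX17 (chromosome 22, 38483438 to 38506311, minus strand) was covered over 7243 and 7936 bp with vitamin C and 13196 and 8965 bp in the controls. DDX5 (chromosome 17, 64498254 to 64506866, minus strand) was covered over 4708 and 3009 bp with vitamin C and 6712 and 6586 bp in the controls. Both groups were clear of each other at both genes, and mean vitamin C length was 68.5% of the control mean at DDX17 and 58.0% at DDX5. At equal list length the DDX17 groups overlapped, with 7243 and 7936 bp with vitamin C and 7669 and 7672 bp in the controls. The DDX5 groups then overlapped too, with 4708 and 3009 bp with vitamin C and 6002 and 4206 bp in the controls. At DDX5 the best peak ranked above 99% of its list by the authors' fold in every library.

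Other splicing members were covered much less. DDX42, a partner of the U2 snRNP, had 1034 and 676 bp with vitamin C and 4229 and 1928 bp in the controls. Its log2 ratio was -1.85, but -0.47 at equal list length, -1.17 without control replicate 1 and -4.02 without the 1 kb widening. DDX39A, which like its paralog DDX39B acts in mRNA export, had 1053 and 1745 bp with vitamin C and 2879 and 1794 bp in the controls, so that its groups nearly touched. DDX39B had 360 and 658 bp with vitamin C and 2289 and 1047 bp in the controls. All of its vitamin C cover lay past its 3′ end, in peaks also within 1 kb of MCCD1. Without the 1 kb widening DDX39B was called lost. DHX15, which takes spent spliceosomes apart, was covered over 0 and 392 bp with vitamin C and 2561 and 2134 bp in the controls, the lowest share of control length, 8.35%, of any kept or partly kept member. DDX41 had a single peak in each library, of 210 and 228 bp with vitamin C and 287 and 306 bp in the controls. Its 210 bp in vitamin C replicate 1 lay wholly upstream of the gene. DHX38 and DDX46, which act at other steps of splicing, were partly kept, with 0 and 191 bp and with 317 and 0 bp with vitamin C, against 880 and 803 bp and 1697 and 650 bp in the controls. The 191 bp of DHX38 lay wholly past its 3′ end, and without the 1 kb widening DHX38 was called lost. DHX16, the helicase that activates the spliceosome for its first step, had no peak in any library, and DHX8, which releases the spliced mRNA, had 1 in control replicate 1 only.

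All 16 ribosome biogenesis helicases had a peak in some library, 14 of them in both controls. Of these 7 were kept (50%, beside 49.7% of all genes), 1 was partly kept and 6 were lost (42.9%, beside 26.8%). DDX21, a nucleolar helicase of rRNA synthesis and processing (chromosome 10, 68956170 to 68985068, plus strand), was covered over 1334 and 810 bp with vitamin C and 7974 and 4925 bp in the controls. Its 3 and 3 vitamin C peaks stood against 17 and 12 control peaks, and the mean length was 16.6% of control. DDX55, which serves the large ribosomal subunit, was covered over 760 and 1404 bp with vitamin C and 5192 and 3986 bp in the controls. At equal list length DDX55 had a log2 ratio of 0.19 instead of -2.08, so its direction depends on list length. DDX21 then had one of -1.41 instead of -2.59, or 37.6% of control length. Its groups then overlapped, with 1334 and 810 bp with vitamin C and 4466 and 1233 bp in the controls. DDX56 had 1558 and 499 bp with vitamin C and 4227 and 2751 bp in the controls, and DDX51 had 817 and 1289 bp with vitamin C and 2793 and 2452 bp in the controls. At DDX56 the log2 ratio was -1.76, with -2.81 without vitamin C replicate 1 and -1.16 without vitamin C replicate 2. In the full lists both vitamin C values lay below both control values at all 4 genes. The remaining kept genes DDX18, DDX50 and DDX54 and the partly kept DHX37 had between 0 and 421 bp with vitamin C and between 595 and 1213 bp in the controls. At DDX54 all vitamin C cover lay past its 3′ end, in peaks also within 1 kb of CFAP73. Without the 1 kb widening DDX54 was called lost. DDX24 and DDX47 each had a peak in 1 control only.

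Among the helicases of translation, export and decay, DHX9 had the largest mean control length of all members. DHX9, or RNA helicase A, resolves RNA and RNA-DNA structures in the nucleus (chromosome 1, 182839347 to 182887982, plus strand). Peaks covered 6933 and 7389 bp of it with vitamin C and 20591 and 17557 bp in the controls, in 17 and 19 peaks with vitamin C and 34 and 30 in the controls. That was 13.7% and 14.6% of the widened gene with vitamin C and 40.7% and 34.7% in the controls. By mean control length DHX9 ranked 8 among 19974 genes, DDX3X ranked 42 and DDX17 ranked 44. By the percentage covered, among 14316 genes of 10 kb or more, DDX17 ranked 34, DHX9 62 and DDX3X 87. DDX3X, which helps translate mRNAs with structured leaders (chromosome X, 41333308 to 41364472, plus strand), was covered over 7467 and 6158 bp with vitamin C and 10817 and 11535 bp in the controls. The mean length with vitamin C was 61.0% of control at DDX3X and 37.5% at DHX9. At equal list length the value was 72.8% at DDX3X and 70.9% at DHX9.

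DHX34, a factor of nonsense-mediated decay, was the kept member whose length with vitamin C came closest to control. It was covered over 2617 and 1513 bp with vitamin C and 2171 and 1892 bp in the controls, and the groups overlapped. DDX1, part of the tRNA ligase complex, had 655 and 808 bp with vitamin C and 959 and 1210 bp in the controls. DDX6, a P-body helicase that holds mRNAs back from translation, had 769 and 445 bp with vitamin C and 3119 and 1851 bp in the controls. DHX36, which unwinds G-quadruplexes, had a peak in replicate 1 of each condition, 446 bp with vitamin C and 366 bp in the control, and none in either replicate 2. DDX19B and DDX20 were partly kept, and DHX29 had 516 and 210 bp with vitamin C and 674 and 648 bp in the controls. All of this DHX29 cover lay upstream of the gene, so that the gene itself was covered in no library. Of the 10 genes of this group 9 had a peak in both controls, and 6 of these were kept (66.7%, beside 49.7% of all genes), 2 partly kept and 1 lost (11.1%, beside 26.8%).

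DHX30 and DDX28 both serve the mitochondrial ribosome, and they differed widely in opened length. DHX30 (chromosome 3, 47803138 to 47850193, plus strand) was covered over 2485 and 2600 bp with vitamin C and 9581 and 6923 bp in the controls, 30.8% of control (49.4% at equal list length). At DDX28, a gene of 2.317 kb, 169 and 201 bp were covered in the controls and the gene was called lost. Both control peaks lay wholly past its 3′ end, within the 1 kb widening, so that the gene itself was covered in no library. DDX11, a DNA helicase of sister chromatid cohesion, was covered over 48 and 529 bp with vitamin C and 1683 and 2606 bp in the controls. The 48 bp in vitamin C replicate 1 lay wholly past its 3′ end. DDX11 has near-identical copies elsewhere in the genome, and whether reads are shared with them was not tested. DDX59 and DHX32, given no role here, were partly kept, and DHX57 had a peak in control replicate 2 only. The vitamin C cover of DDX59, 205 bp in replicate 1, lay wholly upstream of the gene. Without the 1 kb widening DDX59 was called lost.

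9 members had no peak in any library. They were the germline genes DDX4, DDX25, DDX43 and DDX53, the antiviral genes DDX60, DDX60L and DHX58, and DHX16 and DHX40. All 4 germline and all 3 antiviral members on the lists were thus without a peak, as were 52.5% of all protein-coding genes. Absence from a list says only that no region passed the authors' threshold.

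The 10 lost members were all short of 1.5 kb in the controls. DDX19A, paralog of the mRNA export helicase DDX19B, had the longest control cover, 1195 and 1457 bp. DDX31 followed with 1048 and 852 bp, DDX49 with 712 and 1041 bp and DDX52 with 842 and 762 bp, all from the ribosome biogenesis list. DDX10, DDX27 and DHX33, of the same list, had 721 and 531 bp, 749 and 217 bp, and 468 and 322 bp in control replicates 1 and 2. The remaining ones were the splicing genes DDX23, with 273 and 829 bp, and DHX35, with 506 and 453 bp, and the mitochondrial DDX28. At 7 of the 10 a control peak of one replicate overlapped one of the other. At DDX10, DDX27 and DHX33 the replicates had peaks in different places. Without the 1 kb widening DDX28 and DHX35 were no longer lost. At DDX52 all control peaks also lay within 1 kb of the neighbouring gene SYNRG.

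Along the genes, most opened DNA lay in the body. Each summit was placed within 1 kb of a listed transcription start, within 1 kb of the annotated 3′ end, in the body between, or farther outside. Bodies held 66.7% and 68.7% of the members' summits with vitamin C and 75.1% and 70.9% in the controls. Starts held 13.1% and 14.5% with vitamin C and 12.0% and 15.4% in the controls, a difference of 0.07 points whose sign was not stable. The 3′ ends held 13.1% and 13.3% with vitamin C and 6.91% and 9.14% in the controls, a difference of 5.15 points (exact two-sided permutation p = 0.333, the smallest possible). In numbers this was 11 and 11 peaks with vitamin C and 15 and 16 in the controls at 3′ ends. Bodies held 56 and 57 with vitamin C and 163 and 124 in the controls. Summits farther outside made up 7.14% and 3.61% with vitamin C and 5.99% and 4.57% in the controls. At DHX30 a terminal summit counted as 3′ end in both vitamin C libraries, while the terminal control summits lay farther out and counted as outside. How far such shifts enter the difference was not tested. Over all protein-coding genes the 3′ ends held 14.3% and 14.2% with vitamin C and 10.7% and 11.2% in the controls, and starts 25.5% and 24.9% with vitamin C and 19.8% and 20.7% in the controls. Genes without a listed start had both ends counted as starts and none as a 3′ end. This held for 5 members, while 15813 of 19974 coding genes had a listed start. Start and 3′ end shares of the members and of all genes are therefore not measured quite alike. No test of the members against other genes was made.

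**Figure D3:**
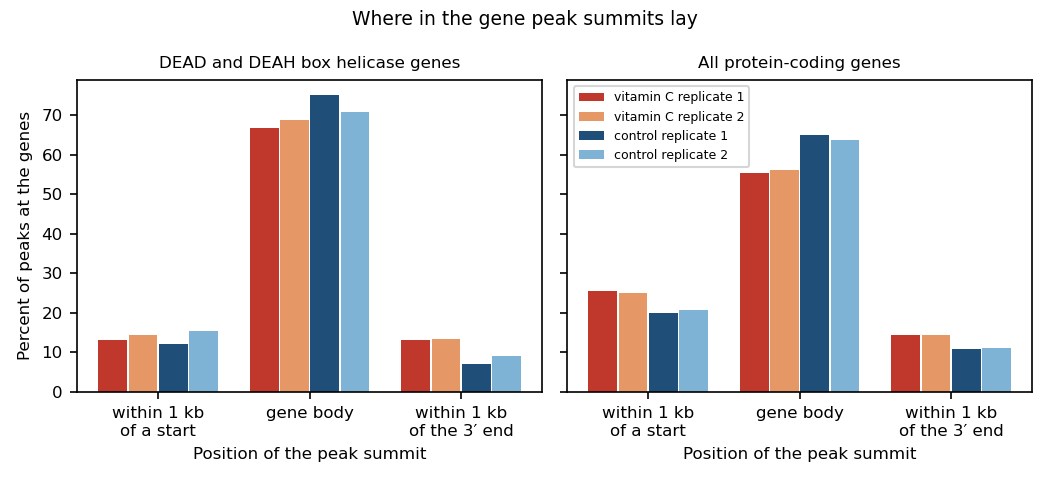
Percentage of peak summits within 1 kb of a listed start, in the gene body and within 1 kb of the 3′ end, for the helicase genes (left) and all protein-coding genes (right). Bars are single libraries, vitamin C in red and orange and control in blue. Genes without a listed start had both ends counted as starts. In the helicase genes the 3′ bars reach 13.1% and 13.3% with vitamin C and 6.91% and 9.14% in the controls.

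The last peaks of DHX9 and DDX5 were long in all 4 libraries and ran past the annotated 3′ end. At DHX9 the last peak ran from 49.0 to 51.8 kb and from 49.4 to 51.8 kb past the annotated start with vitamin C, and from 48.7 to 51.8 kb in both controls, while the annotated gene ends at 48.6 kb. Its length was 2765 and 2344 bp with vitamin C and 3113 and 3098 bp in the controls. At DDX5 the last peak measured 2613 and 2802 bp with vitamin C and 3525 and 3184 bp in the controls, ending between 10.4 and 10.7 kb for a gene of 8.61 kb. At both genes the terminal peak was shorter with vitamin C than in either control, but was still the longest peak of its library at that gene.

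DDX3X and DHX30 showed other layouts. At DDX3X the longest peak lay inside the annotated gene, from 16.7 to 20.7 kb and 16.9 to 20.1 kb with vitamin C and from 16.9 to 20.7 kb and 15.9 to 20.6 kb in the controls, and no peak lay beyond it although the annotation runs to 31.2 kb. At DHX30 the first peak began at 33.2 and 23.6 kb with vitamin C and at 23.5 and 23.6 kb in the controls, so that all peaks lay in the later part of the gene. Its terminal peak was 2908 and 2356 bp long in the controls, while with vitamin C peaks of 349 and 208 bp in replicate 1 and of 587 bp in replicate 2 lay there. At this gene, then, the terminal stretch was also short with vitamin C.

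**Figure D4:**
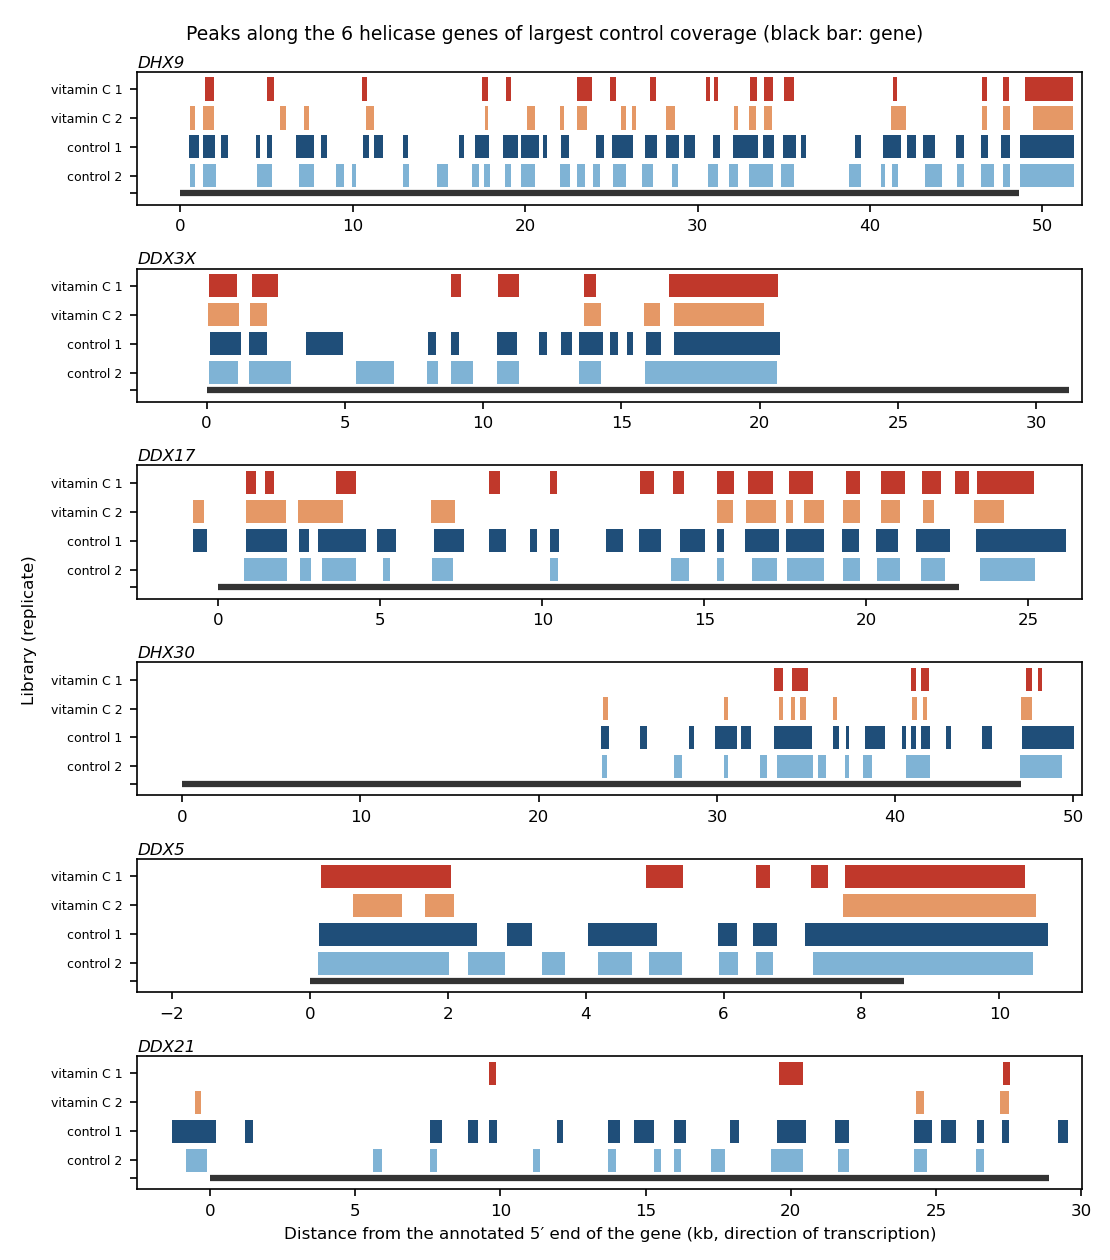
Peaks along the 6 members of largest mean control length, with distance in kb from the annotated 5′ end in the direction of transcription. Rows from top to bottom are vitamin C replicates 1 and 2 (red, orange) and control replicates 1 and 2 (dark and light blue), and the black bar is the gene. In DHX9 and DDX5 a long block beyond the 3′ end is present in all 4 rows, and in DDX21 the vitamin C rows hold 3 peaks each.

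Peaks reaching the first 1 kb past the 3′ end were found at 12 and 10 of 48 members with vitamin C and at 20 and 19 in the controls. In both controls 16 members (33.3%) had such a peak, beside 11.5% of all protein-coding genes with a known strand. Of these 16, 8 had it in all 4 libraries: DHX9, DHX30, DDX39B, DDX54, DDX42, DDX5, DHX34 and DDX17. DDX28, DDX19A and DDX39A had it in the controls only. That is 50% in all 4 libraries and 18.8% in the controls only, beside 43.6% and 32.0% of all genes with such a peak in both controls. At DDX42 the stretch past the end was 1000 and 464 bp with vitamin C and 1000 and 729 bp in the controls, out of 1 kb examined, and there it also met neighbouring genes.

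Peaks directly over promoters were fewer. The window from 250 bases before to 50 after each listed start was available for 48 members, and DDX18, DHX33, DDX52, DHX58 and DDX49 were not in the table. A peak met the window in both controls at 9 members (18.8%), beside 8.14% of all coding genes with a window. It did so in all 4 libraries at DDX39A, DDX3X, DDX41, DDX5 and DHX34, and in the controls only at DDX21, DHX29 and DHX38. These shares, 55.6% and 33.3%, stand beside 44.8% and 32.5% of all genes so covered in both controls. At DHX29 the vitamin C peaks of 516 and 210 bp lay farther upstream, within 1 kb of the start.

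4 promoters are printed to show these patterns, from RefSeq on GRCh38.p14, 5′ to 3′ on the strand of the gene, with capitals for motif matches on either strand, which were searched as GGGCGG (a GC box), as CCAAT and as TATAAA. DDX3X, at one of its listed starts (chrX:41333912-41334211, plus strand) was covered over all 300 bases in each library. DHX34 (chr19:47349065-47349364, plus strand) was covered over 106 and 113 bases with vitamin C and 117 and 130 in the controls. DDX21, at the first of its listed starts (chr10:68955920-68956219, plus strand), was covered over 0 and 0 bases with vitamin C and 300 and 136 in the controls. Its other listed window was covered in no library. DHX9 (chr1:182839097-182839396, plus strand) was covered in no library. Yet in both controls peaks covered more of the widened DHX9 gene, in bp, than of any other member. With vitamin C DDX17 was covered over more, 7243 and 7936 bp against 6933 and 7389 bp at DHX9.
DDX3X: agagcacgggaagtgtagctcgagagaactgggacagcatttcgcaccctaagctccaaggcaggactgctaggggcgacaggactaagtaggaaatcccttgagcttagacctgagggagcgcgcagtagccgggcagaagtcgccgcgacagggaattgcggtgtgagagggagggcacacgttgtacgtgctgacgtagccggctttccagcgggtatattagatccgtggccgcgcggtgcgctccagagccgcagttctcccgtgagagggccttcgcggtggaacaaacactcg
DHX34: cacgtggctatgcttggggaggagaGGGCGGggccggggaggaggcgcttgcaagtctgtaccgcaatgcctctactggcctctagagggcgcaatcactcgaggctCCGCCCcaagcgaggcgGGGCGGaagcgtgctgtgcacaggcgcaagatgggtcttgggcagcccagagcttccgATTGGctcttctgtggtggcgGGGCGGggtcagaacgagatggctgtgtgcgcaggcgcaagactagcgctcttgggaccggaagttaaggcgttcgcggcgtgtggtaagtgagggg
DDX21: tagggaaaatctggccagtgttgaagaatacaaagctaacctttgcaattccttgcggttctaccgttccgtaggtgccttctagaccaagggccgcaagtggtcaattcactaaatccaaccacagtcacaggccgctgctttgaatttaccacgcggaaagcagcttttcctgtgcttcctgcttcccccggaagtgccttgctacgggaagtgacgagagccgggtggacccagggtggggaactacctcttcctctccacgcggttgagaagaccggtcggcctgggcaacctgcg
DHX9: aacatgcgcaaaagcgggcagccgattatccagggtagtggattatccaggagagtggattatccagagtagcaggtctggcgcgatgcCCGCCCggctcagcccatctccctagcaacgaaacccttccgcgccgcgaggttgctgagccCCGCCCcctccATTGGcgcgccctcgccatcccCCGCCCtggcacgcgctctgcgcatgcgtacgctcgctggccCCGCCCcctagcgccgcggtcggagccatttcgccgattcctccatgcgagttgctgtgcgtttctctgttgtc
Guanines, the bases that N3-kethoxal labels, made up 35.3% of the printed strand at DDX3X, 41.3% at DHX34, 27% at DDX21 and 28% at DHX9.

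The motifs did not sort the printed promoters by coverage. GGGCGG occurred 4 times at DHX34 and 4 times at DHX9, which differ in coverage, and not at DDX3X or DDX21. CCAAT occurred once at DHX34 and once at DHX9. TATAAA was in none of the 4. Among the members 30 of 48 (62.5%) held GGGCGG, beside 64.3% of all coding genes with a window. CCAAT was found at 25 members (52.1%), beside 42.1% of all, and TATAAA at 4 (8.33%), beside 12.4%. A match is a run of letters and does not show that a factor binds there.

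MicroRNAs of the RefSeq table lie within DDX5, DHX30, DDX52 and DDX54, and 1 hairpin lay under a peak. MIR3064 in DDX5 (chr17:64500774-64500839, minus strand) was covered over its full 66 bases in both controls and over 0 bases with vitamin C. Its mature forms are shown with the seed, bases 2 to 8, in capitals, because they mark the stretch of DDX5 that was opened in the controls only.
hsa-miR-3064-5p: uCUGGCUGuuguggugugcaa
hsa-miR-3064-3p: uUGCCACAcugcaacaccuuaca
The control peaks there were 279 and 280 bp long. The DDX5 microRNA MIR5047 and those in DHX30, DDX54 and DDX52 were under no peak. SNORD84, a box C/D snoRNA gene in DDX39B, lay under a peak of 830 bp in control replicate 1 only.

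Several members are paralogs that lie side by side, and of 3 such pairs only DDX19A and DDX19B differed in their call. That difference was gone without the 1 kb widening, where both genes were called lost. DDX21 and DDX50 are neighbouring paralogs on chromosome 10. DDX50 had 343 and 338 bp with vitamin C and 992 and 620 bp in the controls, and DDX21 had 1334 and 810 bp with vitamin C and 7974 and 4925 bp in the controls. DDX19A and DDX19B are neighbours on chromosome 16. DDX19B had 172 and 0 bp with vitamin C and 387 and 772 bp in the controls, while DDX19A was lost. The 172 bp lay wholly upstream of DDX19B, in a peak also within 1 kb of AARS1. DDX60 and DDX60L, neighbours on chromosome 4, were both without peaks.

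Some peaks cannot be assigned to the helicase alone. Of the members' peaks, 13 of 84 and 13 of 83 with vitamin C and 24 of 217 and 26 of 175 in the controls also lay within 1 kb of another protein-coding gene. DHX29 shared its only peak with MTREX in every library, and at DDX5 the last peak also lay near POLG2 and MILR1. With peaks shared with coding or small RNA genes left out, the log2 ratio of covered length over the members was -1.42 and 10 members were lost, 8 of them the same genes. DDX52 and DDX27 were then no longer lost, while DDX19B and DDX39B were.

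Single opened regions gave a similar picture. Merged peaks shared by the controls numbered 126 at members. Vitamin C peaks overlapped 49 of them in both replicates (38.9%, with a 95% Clopper-Pearson interval of 30.3 to 48.0), 32 in 1 replicate and 45 in none (35.7%, 27.4 to 44.7). Over all protein-coding genes 32.8% were met in both and 41.9% in neither, out of 12211 regions. The intervals cover counting error only and take regions as independent. Many regions lie in the same gene and all come from the same libraries, so the intervals are no test against other genes. DDX17 had 14 such regions, of which 9 were met in both and 1 in neither, while DDX21 had 9, of which 0 were met in both and 6 in neither. DHX9 had 23, with 8 met in both, 10 in 1 and 5 in neither. In the other direction, 71 of 84 and 68 of 83 vitamin C peaks at members met a peak in both controls, and 2 and 5 met one in neither. The control lists are much longer and no such share over all genes was taken. This overlap therefore cannot be read as particular to the helicase genes.

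RNA helicases of the same superfamily that carry other names were also covered less with vitamin C, to 55.5% of control in sum. The same value was 38.8% at the members and 32.2% over all protein-coding genes. Of 15 such genes 7 had a peak in both controls (46.7%, beside 35.3% of all genes). Of these 6 were kept (85.7%, beside 49.7% of all genes) and 1, ASCC3, was lost (14.3%, beside 26.8%). EIF4A2 and EIF4A1, which unwind mRNA leaders for translation initiation, and EIF4A3, a core protein of the exon junction complex, were the kept ones of greatest control length. EIF4A2 had 4415 and 4567 bp with vitamin C and 6986 and 5863 bp in the controls. EIF4A1 had 5211 and 3737 bp with vitamin C and 6551 and 6038 bp in the controls, and EIF4A3 had 949 and 979 bp with vitamin C and 2473 and 1586 bp in the controls. ASCC3 had 996 and 1090 bp in the controls. The innate RNA sensors RIGI and IFIH1 had no peak in any library.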

How the data were processed

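KAS-seq libraries of HEK293T cells were analysed from the authors' peak lists, 1 for each labelled library. The build was hg38, per the submitters' processing notes, which also name MACS2 (version 2.2.7.1), Bowtie2 (2.4.5), bcl2fastq (2.19), deepTools, cutadapt and Trim Galore. The labels state no settings for them. The deposited lists hold peak positions, the authors' fold over background (a linear ratio), −log10 p-value and −log10 q-value, and the summit. The fold ranked peaks within a list and the q-value only cut lists in alternatives.

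Peaks outside chromosomes 1 to 22 and X were left out (4.23% to 5.06% of a list). Genes, starts and sequences came from RefSeq, GRCh38.p14, of which 48 members had a listed start; for the other 5 both ends were used. A gene was widened by 1 kb, any overlapping base counted, and covered length was the sum of covered bases. Vitamin C and control libraries were compared with an exact permutation test, two-sided. Members and lists were chosen with earlier results of these data known, so no test over members was made. Named genes were all lost members, the 10 of largest control length, the 5 highest and lowest ratios among kept ones and the first 2 of each role list; others were named to account for every member or to show a pattern after their values were seen. Alternatives changed list length, q, fold, widening, windows and libraries. Python 3.11.15, numpy 2.4.6, pandas 2.3.3 and scipy 1.17.1 were used, and the presence calls and lengths were tested on simulated data.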

Additional observations from a re-analysis of the deposited data

How the results depend on the processing

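Covered length at the helicase genes kept its direction under every alternative run, with log2 ratios from -1.51 to -0.47, while peak number and the start share did not. At equal list length peak number had a log2 ratio of 0.15, the difference in start share -3.40 points, the lost members 1, the members with a peak in both controls 22 and the control regions met 77.8%, a setting that by its construction takes away the unequal list lengths. The start share also differed by -0.25 points with genes widened by 5 kb. With a fold of at least the median 6 members were lost, of which only DDX49 and DDX52 were among the original 10, and requiring 50% of a region to be covered left 18.3% of regions met; causes were not tested. With 1 library left out at a time there were start shares of -1.65 to 1.79 points (negative without control replicate 1 and, at -0.61, without vitamin C replicate 2), 24.4% to 52.4% of regions met (24.4% without control replicate 2, where regions need 1 control only) and 12 to 15 lost members (15 without vitamin C replicate 2), which held all 10 each time. Among the 10 members of largest control length, 99 of 100 log2 ratios were below 0, the exception being DDX55 at equal list length, 0.19. These members were chosen by control length, the divisor of the ratio, which favours values below 0. All settings also reuse the same libraries, so the count is no independent support. The 3′ end share and the members with a peak in both controls were added after the data were seen, and the 3′ end share differed by 2.11 to 7.50 points. With replicate number as a block, log2 ratios were -1.22 for peaks and -1.36 for covered length, and the start share 0.07 points, with no direction changed; replicate differences correlated at 0.16 between conditions over 44 members. Peak lists give neither read numbers nor values below the threshold, so weaker signal and closed DNA cannot be told apart where a peak is missing. With 2 libraries in each condition the smallest exact p was 0.333.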
